A study of Homo sapiens with 4 samples.

Results

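The 9 genes described here encode liver transcription factors (FOXA1, ONECUT2), secreted proteins (IGFBP1, APOE) and enzymes of amino acid, steroid and drug metabolism (HPD, AKR1C1, AKR1C2, AKR1C3, CYP1B1). They were selected by gene symbol, with their averages in the knockdown and the control already known, so their directions and sizes below are descriptions and were not tested. All 9 were among the 1409 distinct genes that the authors list for HepG2, and 0 of 9 were among the 942 listed for K562. Both tables hold only genes that differed by 2-fold or more, so a gene that is missing from one is unlisted there, not unaltered.

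The study lowered ADAR, the deaminase that edits adenosine to inosine within RNA duplexes, to ask how it shapes splicing. Its 4 groups were HepG2 cells, a hepatocellular carcinoma line, and K562 cells, an erythroleukemia line, each carrying a stably transfected plasmid with either siRNA against ADAR or a scrambled siRNA, and each group was 1 sample. Knockdown and control cells thus both carry a plasmid and differ in its insert; whether each line was 1 clone or a pool is not stated in the sources used here. RNA was read as paired ends of 76 bases in 2 technical replicates, and the tables give 1 average per group, so no value has an SD and no difference has a replicate check or a p-value.

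Hepatocyte identity is held by a network of transcription factors in which forkhead (FOXA) proteins open chromatin and ONECUT proteins act in liver and bile duct development. Hepatocytes secrete binding proteins and apolipoproteins into the plasma: IGFBP1 binds insulin-like growth factors and its gene is repressed by insulin, and APOE is the ligand by which lipoprotein receptors take up remnant particles. HPD performs an early step of tyrosine breakdown. The AKR1C enzymes reduce ketosteroids, prostaglandins and xenobiotic carbonyls, and CYP1B1 oxidizes estrogens and polycyclic hydrocarbons and is a classic target of the aryl hydrocarbon receptor (AHR).

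In HepG2 the regulators and secreted proteins were higher in the ADAR knockdown and the aldo-keto reductases and HPD were lower. Folds are ratios of the authors' averages after adding 1 to each. Percents of the control average left in the knockdown are of the averages without the added 1. The 4 regulator and secreted-protein genes had log2 folds from 1.20 to 2.79 with a median of 1.33, a 2.51-fold difference. The 4 genes of HPD and the aldo-keto reductases had log2 folds from -3.61 to -1.25 with a median of -2.32, a 5.00-fold difference in the other direction. CYP1B1 was with the higher genes. Of all genes listed for HepG2, 55.0% were higher and 45.0% were lower; 5 of the 9 genes were higher and 4 were lower, and since the choice of genes used these values, nothing is read from that split. Over all listed genes, the median log2 fold was 1.35 among the higher ones and -1.37 among the lower ones. ADAR averaged 129 in the knockdown and 461 in the control of HepG2, and 131 and 275 in K562.

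**Figure D1:**
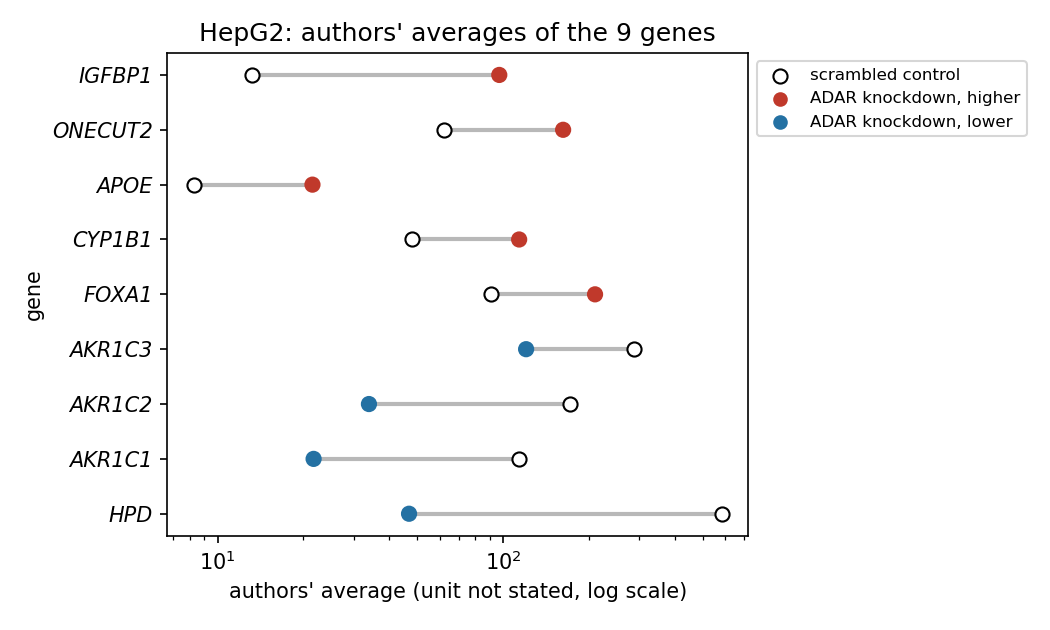
Authors' averages of the 9 genes in HepG2, on a log axis, with open circles for the scrambled control and filled circles for the ADAR knockdown (red where higher, blue where lower). Each line joins the pair of values of 1 gene, with 1 average per group and no error; IGFBP1 at the top has averages of 13.2 and 97.0, and HPD at the bottom has 584 and 46.9. Distances along a line can be compared between genes, positions cannot, because the basis of the averages is unknown.

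Both transcription factor genes were higher in the knockdown by similar folds. FOXA1 (ENSG00000129514, chromosome 14), a forkhead factor, averaged 210 in the knockdown and 90.8 in the control, which is 2.30-fold higher. ONECUT2 (ENSG00000119547, chromosome 18), a homeobox factor of the HNF6 family, averaged 162 in the knockdown and 62.0 in the control, which is 2.59-fold higher. The folds of the pair differed by a factor of 1.13. Neither stood out among the higher genes: 65.3% of the 775 genes higher in HepG2 had a larger fold than FOXA1 and 47.2% had a larger fold than ONECUT2. On the list of 30 hepatocyte transcription factors, 3 genes were listed, all higher, as were 55.0% of all genes listed in HepG2. FOXA1 and ONECUT2 were among the 3 and had been chosen with their values known. The third was GATA6, a zinc-finger factor of endoderm development, at 55.3 in the knockdown against 17.9 in the control and a log2 fold of 1.58. HNF4A, FOXA2, FOXA3, ONECUT1 and CEBPA, which are other core factors of that network, are unlisted. The shared direction holds for that list only. CEBPB and ATF5, liver-enriched factors outside it, were listed at log2 folds of 1.49 and -1.01. Both were named after their values were seen. FOXA1 overlaps TTC6 on the opposite strand in GENCODE release 29, and TTC6 is unlisted.

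IGFBP1 had the largest fold of the 5 higher genes and APOE the lowest averages. IGFBP1 (ENSG00000146678, chromosome 7) averaged 97.0 in the knockdown and 13.2 in the control, which is 6.92-fold higher. Only 4.90% of the genes higher in HepG2 had a larger fold. APOE (ENSG00000130203, chromosome 19) averaged 21.5 in the knockdown and 8.25 in the control, which is 2.43-fold higher. The deposited name of the APOE row also gives a hypothetical locus, so the row may not be APOE alone. The larger of its averages lies under the lower quartile of that quantity in HepG2, which was 26.0, and the smallest value listed was 14.0. With a pseudocount of 10 in place of 1, the log2 fold of APOE was 0.79, under 2-fold, whereas that of IGFBP1 was 2.21.

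The other genes of the insulin-like growth factor axis did not share one direction. Of 19 such genes, the HepG2 table held 5, with 2 higher and 3 lower and a median log2 fold of -1.23. IGFBP4, a secreted binding protein that PAPPA cleaves, averaged 13.5 in the knockdown and 91.0 in the control, which is 6.34-fold lower. IGFBP7, a related secreted protein that binds these growth factors weakly, averaged 304 in the knockdown and 892 in the control and had a log2 fold of -1.55. STC2, a secreted glycoprotein that inhibits PAPPA, averaged 1808.2 and 93.0, a log2 fold of 4.27. The fifth, IRS1, a docking protein of the insulin receptor, was named after its value was seen and had a log2 fold of -1.23. IGFBP1 and IGFBP4 thus lay about as far from the control in opposite directions, at log2 folds of 2.79 and -2.67.

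Of the secreted liver proteins on the lists searched, nearly all beyond these were unlisted. Of 40 plasma proteins made by hepatocytes, IGFBP1 and IGFBP4 were listed. Of 31 genes of apolipoproteins and lipoprotein handling, APOE was the single one listed. That list is not complete: ANGPTL4, LSR and ABCG1, which also act in lipoprotein handling, are not on it. They were listed in HepG2 and were named after their values were seen. Of 12 genes of gluconeogenesis and its regulators, PCK2 was the single one listed. This mitochondrial phosphoenolpyruvate carboxykinase averaged 235 in the knockdown and 58.5 in the control, a log2 fold of 1.99.

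**Figure D2:**
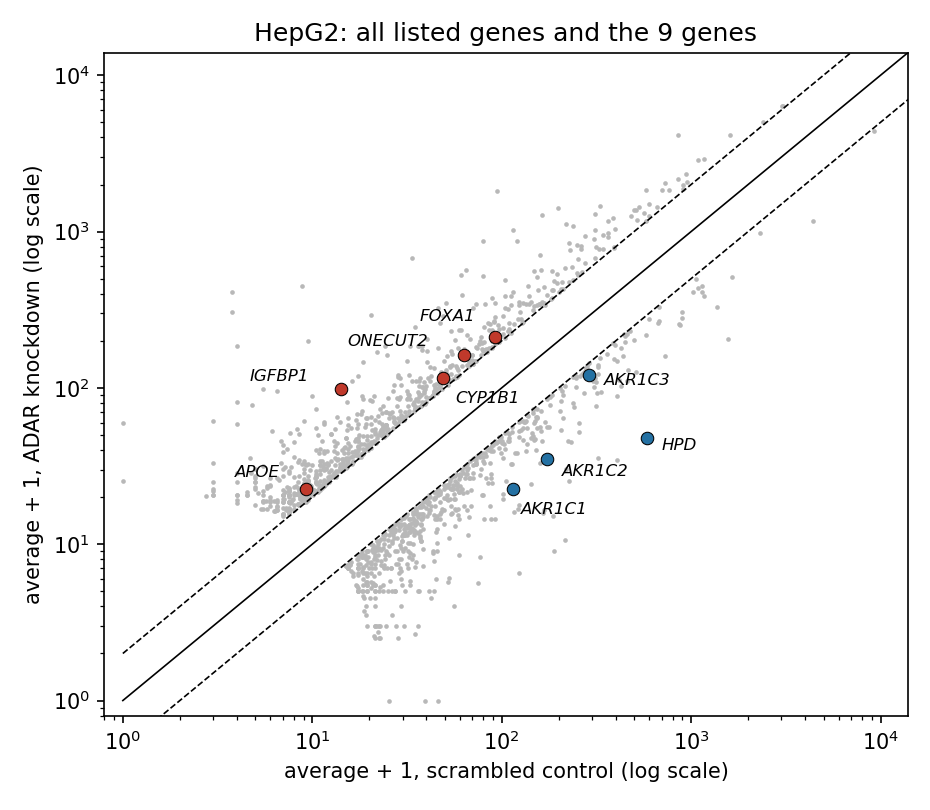
Each grey point is 1 of the 1409 genes listed for HepG2, with the authors' average plus 1 in the control on the x axis and in the knockdown on the y axis, both on log scales. The solid line marks equal values and the dashed lines mark 2-fold; the empty band between them is the authors' threshold, FOXA1 (2.30-fold), CYP1B1 (2.35-fold) and AKR1C3 (2.38-fold) lie near it, and HPD (12.2-fold) lies far below it.

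HPD had the largest fold of the 9 genes. HPD (ENSG00000158104, chromosome 12), 4-hydroxyphenylpyruvate dioxygenase, averaged 46.9 in the knockdown and 584 in the control, which is 12.2-fold lower and left 8.03% of the control average. Only 10 of 634 lower genes had a larger fold. A row without a symbol had nearly the same fold: AC079360.1, which GENCODE places on the strand opposite to HPD, averaged 33.5 in the knockdown and 405 in the control, a log2 fold of -3.56 against -3.61 for HPD. It was named after its value was seen. In that annotation 112 of its 434 exonic bases, or 25.8%, coincide with HPD exons, while 0 of 1107 windows of 76 bases in the HPD coding sequence occur in a transcript of another gene. Strand-specific counting is not stated, so reads of the pair may not have been kept apart and the rows may not be separate observations.

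On the list of 25 genes of aromatic amino acid breakdown and related enzymes, 2 were listed. Both were lower, as were 45.0% of all genes listed in HepG2. HPD, 1 of the 2, was chosen with its value known. The other was HPDL, which encodes a mitochondrial dioxygenase related to HPD. It averaged 408 in the knockdown and 1138 in the control, a log2 fold of -1.48. TAT, the enzyme just before HPD in tyrosine breakdown, and HGD, GSTZ1 and FAH, those after it, are unlisted.

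The 3 aldo-keto reductases were lower in the HepG2 knockdown, with AKR1C1 and AKR1C2 at nearly equal folds and AKR1C3 at a smaller one. AKR1C1 (ENSG00000187134), which reduces progesterone at position 20-alpha, averaged 21.7 in the knockdown and 113 in the control, which is 5.04-fold lower and left 19.2%. AKR1C2 (ENSG00000151632), which inactivates dihydrotestosterone and binds bile acids, averaged 33.9 in the knockdown and 172 in the control, which is 4.96-fold lower and left 19.7%. AKR1C3 (ENSG00000196139), which makes testosterone from androstenedione, averaged 120.5 in the knockdown and 289 in the control, which is 2.38-fold lower and left 41.7%. The folds of AKR1C1 and AKR1C2 differed by a factor of 1.02, and those of AKR1C1 and AKR1C3 by a factor of 2.11. Among genes lower in HepG2, 10.9% had a larger fold than AKR1C1, 11.5% than AKR1C2 and 61.2% than AKR1C3.

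The 3 genes lie in a cluster on chromosome 10, and other genes of that cluster were listed too. GENCODE release 29 names 8 genes and pseudogenes of the AKR1C series there, of which 5 were listed in HepG2. All 5 were lower, as were 45.0% of all genes listed in HepG2. AKR1C1, AKR1C2 and AKR1C3 were chosen with their values known. The larger averages of AKR1C4 and AKR1C5P lie under the lower quartile of that quantity, 26.0. AKR1C4, the most liver-restricted of the human enzymes, averaged 10.5 in the knockdown and 23.2 in the control, which is 2.11-fold lower. The pseudogene AKR1C5P, a row without a symbol that was named after its value was seen, averaged 4.50 and 22.5, which is 4.27-fold lower. AKR1C6P, AKR1C7P and AKR1C8P are unlisted. Along the cluster the share of the control average left in the knockdown was 19.2% for AKR1C1, 19.7% for AKR1C2, 41.7% for AKR1C3, 20.0% for AKR1C5P and 45.2% for AKR1C4. These shares are without the added 1. The folds, with 1 added, were 4.27 for AKR1C5P against 5.04 for AKR1C1 and 4.96 for AKR1C2. Of 17 aldo-keto reductases and related genes in the list, AKR1C1 to AKR1C4 were listed, all lower, and AKR1B1, AKR1B10 and AKR1D1 are unlisted.

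How separate these rows are depends on how reads were assigned, since the genes are close copies. The coding sequences of AKR1C1 and AKR1C2 are both 972 bases long and differ at 19, an identity of 98.0%. AKR1C3 is 91.5% identical to AKR1C1, and AKR1C4 is 88.5% identical to it. Of the 897 windows of 76 bases, the read length, in the AKR1C1 coding sequence, 33.0% occur unaltered in AKR1C2 and 7.47% in AKR1C3. Windows found in a transcript of some other gene made up 35.1% for AKR1C1, 40.4% for AKR1C2, 14.9% for AKR1C3 and 6.47% for AKR1C4. The folds of AKR1C3 and AKR1C4 differed by a factor of 1.13, and 3.46% of the AKR1C3 windows occur in AKR1C4. How the authors placed reads that match several genes is not stated, and its part in the folds was not tested.

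**Figure D3:**
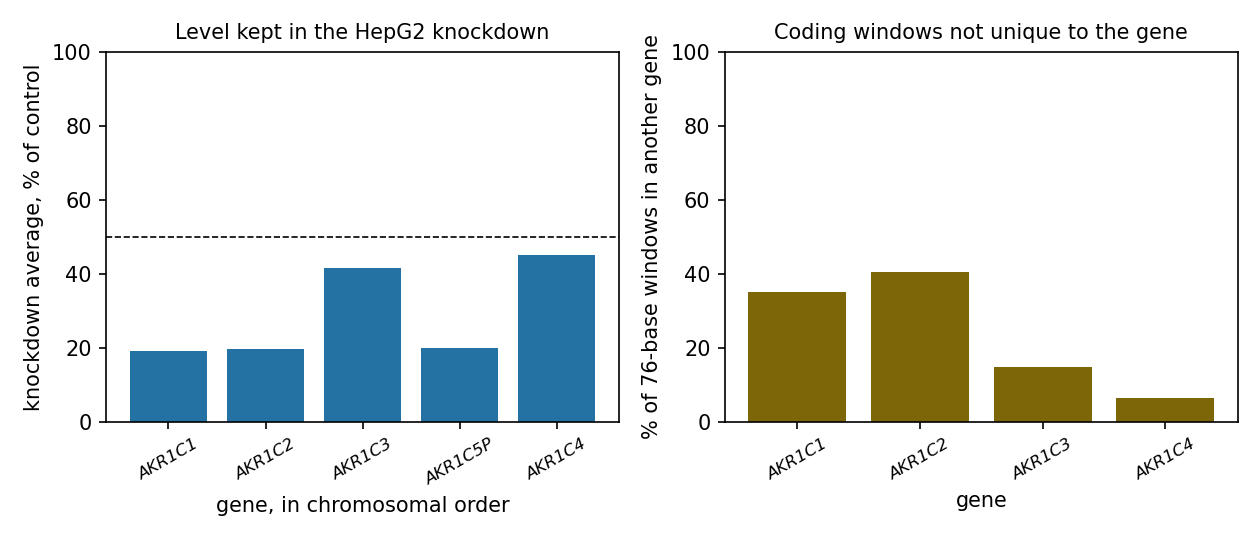
The left panel shows, for the 5 AKR1C genes listed in HepG2, the knockdown average as a percent of the control average, with a dashed line at 50%; the right panel shows, for the 4 coding ones, the percent of 76-base windows of the coding sequence that occur in a transcript of another gene. AKR1C1 and AKR1C2 keep 19.2% and 19.7% and have the most shared windows, 35.1% and 40.4%, while AKR1C5P keeps 20.0% and has no window value; each bar is a single value with no error.

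AKR1C1 and AKR1C2 are near copies ahead of the transcription start as well. RefSeq (GRCh38.p14) gives windows of 250 bases before to 50 after a start for 7 of the 9 genes; IGFBP1 and CYP1B1 have none. Over the 250 bases before the start, AKR1C1 and AKR1C2 differ at 1 of 246 aligned bases, an identity of 99.6%, and AKR1C3 is 76.8% identical to AKR1C1. All 3 genes hold one stretch, shown here to let these close paralogs be compared; the windows of HPD and AKR1C4, which were lower too, do not hold it. Capitals mark the 10 bases ATTGGTTAAC, in which a CCAAT box on the opposite strand (ATTGG) and the palindrome GTTAAC overlap by 1 base.
AKR1C1: ctcacatgccATTGGTTAACcagcagacag
AKR1C2: ctcacatgccATTGGTTAACcagcagacag
AKR1C3: tttacatgctATTGGTTAACcattaggcag
These are 30 bases each, read 5′ to 3′ on the strand of the gene, at chr10:4963328-4963357 (plus strand), chr10:5003919-5003948 (minus strand) and chr10:5048698-5048727 (plus strand) of GRCh38.p14. AKR1C1 and AKR1C2 are the same over all 30 and AKR1C3 differs from them at 6. The AKR1C1 and AKR1C2 stretches lie inside an exon of their gene in GENCODE release 29, and the AKR1C3 stretch does not.

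Motifs were searched on both strands in the windows of 300 bases, and were chosen with the AKR1C windows in view. The 10-base element occurs in 15 of 35116 windows, 0.0427%, which belong to 14 genes and include 4 windows of AKR1C1, AKR1C2 and AKR1C3. CCAAT alone occurs in 34.6% of all windows and GTTAAC in 2.64%. The window of AKR1C4 holds neither. The antioxidant response element TGACNNNGC, by which NRF2 binds, occurs in 13.3% of all windows. HPD holds it in each of its 2 windows and the AKR1C genes do not in theirs. The AHR core GCGTG, in 36.5% of windows, occurs once in the window of ONECUT2 and once in a window of HPD. The FOXA element TGTTTAC, in 3.42% of windows, and the TATA element TATAAA, in 11.5%, were also searched: of the 7 genes with a window, none holds the first, and AKR1C3 holds the second. A match is a string of letters and not evidence of binding.

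CYP1B1 was the single cytochrome P450 gene listed in HepG2 of 56 in the human set. CYP1B1 (ENSG00000138061, chromosome 2) averaged 114 in the knockdown and 47.9 in the control, which is 2.35-fold higher. Of the genes higher in HepG2, 62.2% had a larger fold. Its antisense partner CYP1B1-AS1, a row without a symbol that was named after its value was seen, averaged 24.1 in the knockdown and 11.0 in the control, which is 2.09-fold higher. The pair shares 678 exonic bases, 9.10% of those of CYP1B1-AS1, and 15.4% of the 76-base windows of the CYP1B1 coding sequence occur in CYP1B1-AS1 transcripts on the other strand. Reads from these shared stretches cannot be assigned to one gene without strand. On the list of 12 AHR pathway genes and targets, 2 were listed, both higher, as were 55.0% of all genes listed in HepG2. CYP1B1 was among the 2 and had been chosen with its value known. The other was AHR itself, the ligand-activated receptor, at 84.0 in the knockdown and 27.8 in the control, a log2 fold of 1.56. CYP1A1, CYP1A2, AHRR and TIPARP, targets of the same receptor, are unlisted.

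The wider lists that hold the aldo-keto reductases were lower or went both ways. Of 26 steroid dehydrogenases and reductases, 5 were listed and all were lower, as were 45.0% of all genes listed in HepG2. Their median log2 fold was -2.31. Of the 5, AKR1C1, AKR1C2 and AKR1C3 were chosen with their values known, and AKR1C4 lies in the same cluster. The fifth was HSD17B6, which oxidizes androgen metabolites, at 1.5 in the knockdown and 21.7 in the control, a log2 fold of -3.18. Of 33 NRF2 target genes, a set known for antioxidant defence, 7 were listed, of which 2 were higher and 5 lower; the median log2 fold was -1.01. Of the 5, AKR1C1, AKR1C2 and AKR1C3 were chosen with their values known, and the other 4 listed targets were 2 higher and 2 lower. SLC7A11, the cystine transporter subunit, averaged 349 in the knockdown and 49.8 in the control, a log2 fold of 2.79. The rest of the listed ones, named with their values in view, were the transporter ABCC3 at 1.22, the glutathione synthesis subunit GCLC at -1.01 and malic enzyme ME1 at -1.01. Of 60 conjugating enzymes, UGT8, a galactosyltransferase of ceramide, was listed at 2 in the knockdown and 21.8 in the control, a log2 fold of -2.92. The larger averages of HSD17B6 and UGT8 lie under the lower quartile of that quantity in HepG2, 26.0. The 12 lists together held 24 listed genes in HepG2, 11 higher and 13 lower.

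**Figure D4:**
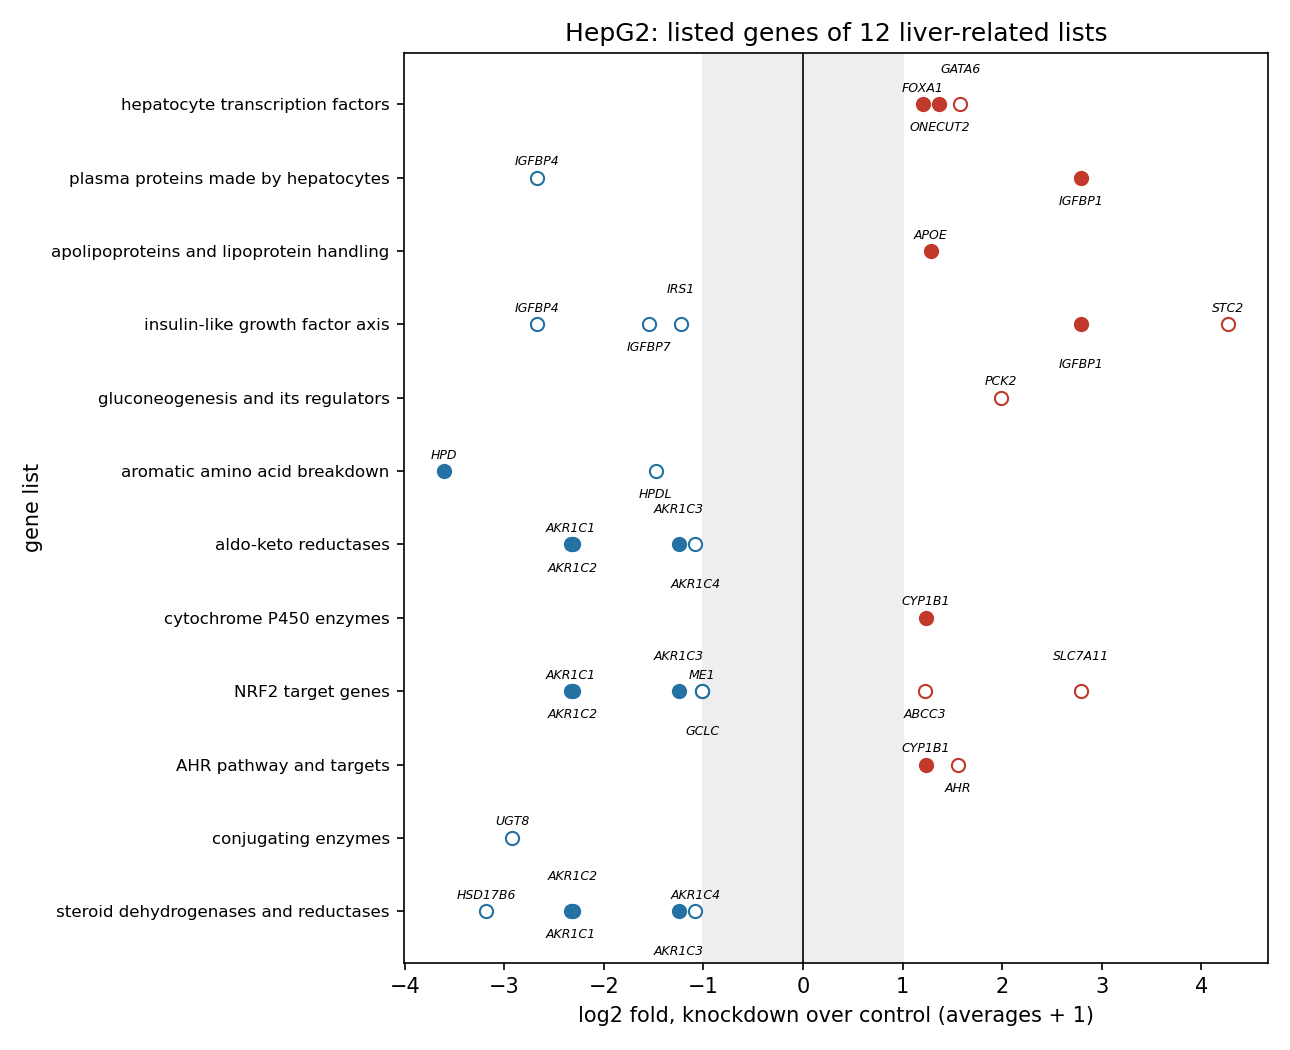
Log2 folds (knockdown over control, averages plus 1) of the listed HepG2 genes of 12 liver-related lists, 1 row per list, with filled points for the 9 genes and open points for other genes; red is higher and blue is lower. The grey band is the range under 2-fold, where the deposited table holds no gene. The aldo-keto reductase and steroid dehydrogenase rows lie wholly to the left and the transcription factor row wholly to the right. Genes outside the lists are not drawn. The filled points in these rows were chosen with their values known.

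The HepG2 rows nearest to each gene in both averages, on a log2 scale, were found over 2 values per gene and are given as neighbours in value and nothing more. FOXA1 lay beside DAPK1 and PPAPDC2, at distances of 0.02 and 0.07. ONECUT2 lay beside SQRDL and NFIL3, at 0.07 and 0.08, APOE beside PCDHB12 and AIM1, at 0.04 and 0.05, and CYP1B1 beside CLIC4 and THSD4, at 0.06 and 0.08. AKR1C3 lay beside HSPH1 and TACC3, at 0.11 and 0.12. IGFBP1, nearest to NHS at 0.25 and ITGA2 at 0.28, stood further from other rows. AKR1C1 lay beside HSPA2 at 0.21 and TAGLN at 0.34, and AKR1C2 beside SH3BP5 at 0.14 and HSPA1A at 0.39. HPD was the most isolated of the 9 genes, 0.96 from COL3A1 and 1.03 from KLHL13.

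At stricter thresholds IGFBP1 was the higher gene that remained, with HPD, AKR1C1 and AKR1C2 among the lower ones. These 4 genes, 1 higher and 3 lower, were past 3-fold and past 4-fold. Of all genes listed in HepG2, 17.0% were higher and 16.4% lower at 3-fold or more, and 8.94% and 8.16% at 4-fold or more. The genes nearest the 2-fold threshold were FOXA1, CYP1B1 and AKR1C3; genes just outside it are not in the table. If the knockdown averages were divided by 1.5, as a stand-in for a scaling that is not stated, FOXA1, ONECUT2, APOE and CYP1B1 would have log2 folds of 0.62 to 0.79. If they were multiplied by 1.5, AKR1C3 would be at -0.67. No direction could change under either, because every listed gene differs by 2-fold or more and the scaling is 1.5.

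**Figure D5:**
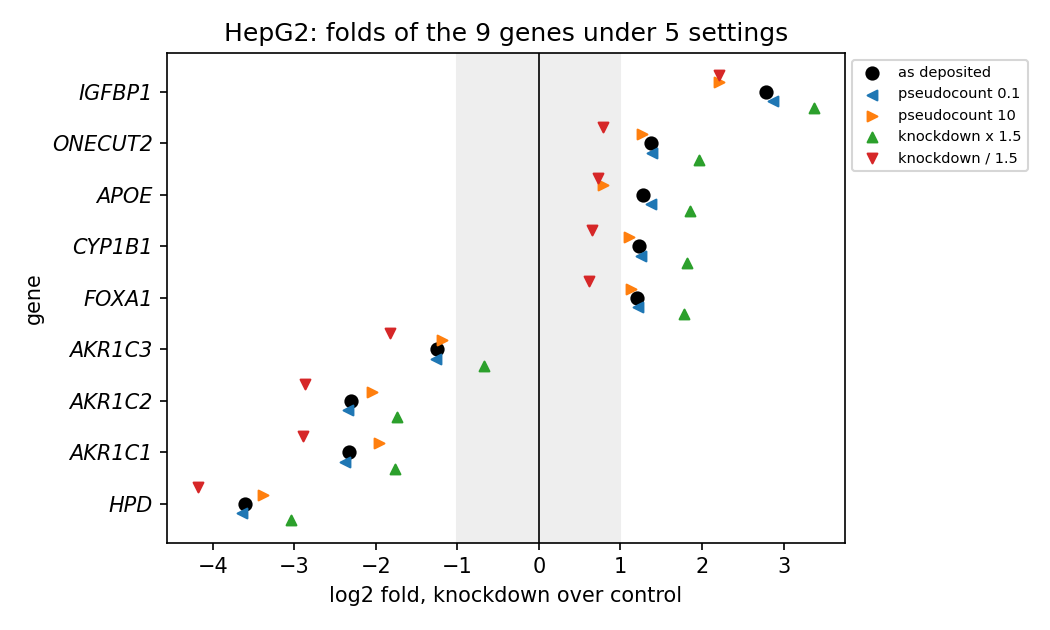
Log2 folds of the 9 genes in HepG2 as deposited (black circles) and under 4 alternatives, pseudocounts of 0.1 and 10 and knockdown averages multiplied or divided by 1.5; the grey band is the range under 2-fold. IGFBP1, HPD, AKR1C1 and AKR1C2 stay outside the band in all 5 settings, while FOXA1, ONECUT2, APOE, CYP1B1 and AKR1C3 enter it in at least 1.

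In K562 the 9 genes are unlisted, and so is every other aldo-keto reductase, cytochrome P450 and steroid dehydrogenase of the lists. Of all genes listed in K562, 38.2% were higher and 61.8% were lower. The same 12 lists held 6 genes there, all lower in the knockdown. The hepatocyte transcription factor list held GATA4, another endoderm GATA factor, at 4.75 in the knockdown and 16.2 in the control, and ZBTB20, a repressor of AFP transcription, at 2.5 and 18.5. Their log2 folds were -1.58 and -2.48. IGFBP4 was lower in both lines, at 49.5 in the knockdown and 107 in the control of K562, a log2 fold of -1.09. STC2 averaged 15.5 in the knockdown and 41.8 in the control, PIR, an iron-binding NRF2 target, 14.5 and 33.5, and the sulfotransferase SULT2B1 2.67 and 17.8. The larger averages of GATA4, ZBTB20 and SULT2B1 lie under the lower quartile of that quantity in K562, 20.5. Whether the lines differ in any of these genes was not tested, because an unlisted gene has no value.

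The labelled cell types could not be checked against their defining markers. None of 14 hepatocyte markers, ALB, AFP and HNF4A among them, is listed in either table, and none of 17 erythroid markers is listed for K562. Markers of other cell types were listed in HepG2: 3 of 17 erythroid genes, with summed averages of 208 in the knockdown and 81.1 in the control, and 5 of 14 fibroblast genes, with 2626.8 and 1345.2. The erythroid genes, HBM, HBA2 and HBZ, were all higher, as were 55.0% of all genes listed in HepG2. Whether these globin rows share reads was not tested. Of the fibroblast genes 3 were higher and 2 lower. None of these marker genes was at 0. In the HepG2 control the fibroblast genes LUM and DCN averaged 528 and 261 and the liver product APOE averaged 8.25; since the basis of the averages is unknown, these levels cannot be ranked across genes. Of 8 endothelial and 10 leukocyte markers, 0 were listed in HepG2; in K562, ENG and ITGAM were listed and were lower, at log2 folds of -1.18 and -1.24. Their part in the values of the 9 genes was not tested, and in bulk RNA fewer cells of a type and less RNA per cell cannot be told apart.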

How the data were processed

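RNA of 4 samples, 1 per group with 2 technical replicates, was read in pairs of 76 bases, per the labels. TopHat, SAMtools and hg19 are named in the submitters' processing notes; the sources used here do not give the counter, annotation, strand setting or depth scaling. Per the file headers, each deposited table holds genes past 2-fold with an average per group, treated as a signal of unnamed unit. Depth is therefore unknown and no counting interval is given. The averages were the authors' own and carry no SD. The deposited log2 fold and the deposited signed fold, a score, equal the ratio of the averages after adding 1; the log2 folds recomputed here differed from the deposited ones by at most 5.0e-12. This understates differences of low genes.

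For the 9 genes the averages were whole numbers divided by 3 to 20, a divisor that differed between genes. Of rows that repeat a symbol, the highest was kept. The members, the 12 gene lists and the 5 marker lists were chosen with earlier results of these data known. The text names the 9 genes, ADAR, every listed gene of a list with 3 or fewer listed, otherwise the 4 largest log2 folds, and the 2 nearest rows per member. With 1 sample per group nothing was tested. Gene types and coding sequences came from GENCODE release 29, matched by Ensembl identifier, and start windows from RefSeq GRCh38.p14; because the tables use hg19, coordinates are given for printed sequences only. The alternatives tried were 3-fold and 4-fold thresholds, a lower-quartile floor, matching by identifier, pseudocounts of 0.1 and 10, and knockdown averages scaled by 1.5. The functions were tested on simulated tables. Python 3.11.15, numpy 2.4.6, pandas 2.3.3, Biopython 1.88 and matplotlib 3.10.9 were used.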

Additional observations from a re-analysis of the deposited data

Results flagged for a closer look

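STC2, the secreted inhibitor of PAPPA in the insulin-like growth factor list, lay in opposite directions in the 2 cell lines, with a log2 fold of 4.27 in HepG2 and -1.38 in K562. With 1 sample per group this difference between the lines was not tested.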

How the results depend on the processing

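The 5 higher and 4 lower genes in HepG2 and the 0 genes listed in K562 kept these counts when genes were matched by Ensembl identifier. A floor at the lower quartile of the larger average left out APOE (4 higher), and knockdown averages multiplied by 1.5 left out AKR1C3 (3 lower). The number of higher genes was 1 at 3-fold, 1 at 4-fold and 1 with knockdown averages divided by 1.5. In each of these the gene was IGFBP1; fewer genes can pass by the construction of these settings. Of the 24 genes of the 12 lists, 4 were higher and 6 lower at 3-fold, and 3 higher and 6 lower at 4-fold, against 11 and 13. These 24 include the 9 genes chosen with their values known. Of all genes listed in HepG2, 17.0% were higher and 16.4% lower at 3-fold, and 8.94% and 8.16% at 4-fold. No log2 fold of the 9 genes changed sign under the 4 pseudocount and scaling settings, and none could. An equal pseudocount keeps the sign, and a scaling of 1.5 is smaller than the 2-fold threshold. With a pseudocount of 0.1 all 9 stayed past 2-fold, which was fixed too, since a smaller pseudocount enlarges each fold. No paired analysis was possible because each group has 1 sample. Leaving out a technical replicate was not run, since 1 average per group was used. Because depth and scaling are unknown, folds near 2 and low averages such as those of APOE and AKR1C4 have no known precision.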

Other observations

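The gene of NRF2 itself was listed in HepG2 and was higher, as were 55.0% of all listed genes. It was looked up after the values of its targets were seen. NFE2L2 (ENSG00000116044), the transcription factor that binds antioxidant response elements, averaged 800.5 in the knockdown and 312 in the control, which is 2.56-fold higher. A second row under the symbol NFE2L2 (ENSG00000222043) averaged 45.0 and 16.0, which is 2.71-fold higher; GENCODE release 29 names that identifier AC079305.1 and types it as antisense. Whether the 2 rows share reads was not tested. Of the listed NRF2 targets that are not among the 9 genes, SLC7A11 and ABCC3 were higher and GCLC and ME1 were lower.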
